A study of Mus musculus with 8 samples.

Results

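The *Hoxb* cluster is a group of 10 homeobox genes on mouse chromosome 11, and H3K9 acetylation over it was read from ChIP-seq peak lists of bone marrow (BM). The genes are *Hoxb1* to *Hoxb9* and *Hoxb13*, which are 10 of the 21938 protein-coding genes considered. Members were taken by position, as every *Hoxb* gene between the start of *Hoxb13* and the end of *Hoxb1* (mm10, chr11:96194316-96368256, 173.9 kb), and every peak that touched this window was used. This gave 66 peaks of the 220499 peaks in the 6 lists. All the 10 genes are transcribed in the same direction, from *Hoxb13* at the low-coordinate end to *Hoxb1* at the other.

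The libraries came from whole BM cells of C57BL/6 mice that all carried the NUP98-HOXD13 transgene, a fusion of a nucleoporin and the homeodomain of HOXD13 that the Vav promoter drives in blood cells and that is used as a model of myelodysplastic syndrome (MDS) progressing to acute myeloid leukaemia. The 3 genotypes were *GFI1-36S* (the common form of the transcriptional repressor GFI1), *GFI1-36N* (the variant form) and *GFI1-KD* (reduced GFI1 expression). Mice of each genotype received vehicle (DMSO, labelled as no curcumin) or curcumin, a natural histone acetyltransferase inhibitor, at 20 mg/kg weekly by intraperitoneal injection. Each of the 6 groups was 1 library, so no value has a replicate check and no test was possible within a genotype. The only test is of curcumin against vehicle over the 3 genotypes, given after the pairs. The labels give neither the age of the mice nor the number of mice behind a library.

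HOX proteins are transcription factors that bind DNA through their homeodomain, often together with PBX and MEIS proteins. In the haematopoietic system, genes of the *Hoxa* and *Hoxb* clusters are active in stem and progenitor cells and are shut down as cells mature, and several of them are kept active in leukaemia. H3K9 acetylation marks the start sites and nearby elements of active or poised genes. In whole BM, fewer cells carrying the mark and less of the mark per cell cannot be told apart.

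A single library stood apart from the rest and touched every comparison of the *GFI1-36S* pair. In the *GFI1-36S* curcumin library, 13 of 14 T-cell marker promoters had a peak (all but *Cd8a*, median rank 26.1), against 2 to 6 in the other libraries. None of the 14 neutrophil marker promoters had a peak there, against 8 to 13 elsewhere, and 3 of 12 stem and progenitor markers did, against 9 to 11. Of 12 erythroid markers 2 had a peak, against 5 to 12, and of 10 B-cell markers none did, against 1 to 4. The names of the 2 *GFI1-36S* lists also carry the opposite treatment to their sample labels. The labels were followed, and values for the exchanged pair are given under the processing alternatives. The lists held 41312, 20354, 39564, 49213, 39272 and 30784 peaks for *GFI1-36S* vehicle and curcumin, *GFI1-36N* vehicle and curcumin, and *GFI1-KD* vehicle and curcumin, and this order of libraries is kept below. Total read depth is unknown from the lists. The weakest peak with recovered fragments anywhere in a library held 13 to 17 fragments at its summit, and the weakest within the window held 16 to 23. Enrichment is measured against the local background, so neither count is a fixed floor for every position.

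The sequences just upstream of 3 start sites are shown because these genes had a peak in every library (*Hoxb4*), in some (*Hoxb8*) and in none (*Hoxb1*). They are the 250 bases before the start in RefSeq (GRCm38.p6, plus strand), at chr11:96318017-96318266, chr11:96281655-96281904 and chr11:96365508-96365757, with matches to 7 short motifs in capitals.
Hoxb4: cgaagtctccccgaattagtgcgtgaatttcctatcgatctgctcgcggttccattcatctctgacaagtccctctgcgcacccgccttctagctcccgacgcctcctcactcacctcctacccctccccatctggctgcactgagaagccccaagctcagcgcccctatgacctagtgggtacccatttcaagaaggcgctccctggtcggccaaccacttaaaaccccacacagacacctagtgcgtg
Hoxb8: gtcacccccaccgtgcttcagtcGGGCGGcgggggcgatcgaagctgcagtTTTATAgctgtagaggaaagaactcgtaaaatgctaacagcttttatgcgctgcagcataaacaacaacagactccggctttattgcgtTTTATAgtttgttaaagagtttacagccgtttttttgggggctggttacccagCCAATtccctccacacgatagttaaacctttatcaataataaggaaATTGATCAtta
Hoxb1: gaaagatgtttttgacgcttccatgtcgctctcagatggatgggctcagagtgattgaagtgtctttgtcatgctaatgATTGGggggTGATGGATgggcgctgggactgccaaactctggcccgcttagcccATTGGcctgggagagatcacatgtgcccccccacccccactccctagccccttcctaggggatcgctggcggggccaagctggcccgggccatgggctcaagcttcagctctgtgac
The motifs were searched on both strands and were the HOX-PBX site TGATNNAT, the MEIS site TGACAG, the GFI1 site TAAATCAC, the CCAAT box, the E-box CACGTG, the GC box GGGCGG and TATAAA. The *Hoxb4* sequence held none of these letters. The *Hoxb8* sequence held the HOX-PBX site at base 240, TATAAA at bases 52 and 141, a CCAAT box at base 194 and a GC box at base 24, counted from the 5′ end. In *Hoxb1*, the HOX-PBX site lay at base 89 and CCAAT boxes at bases 80 and 134, and no match overlapped another. Of 32851 promoters of the same length, 7.68% held the HOX-PBX site, 15.9% the MEIS site, 0.514% the GFI1 site, 33.8% a CCAAT box, 6.02% the E-box, 32.7% a GC box and 12.4% TATAAA. The 3 sequences held 14, 12 and 7 CpG dinucleotides, and the median promoter held 6. *Hoxb2*, *Hoxb3*, *Hoxb5*, *Hoxb6*, *Hoxb7*, *Hoxb9* and *Hoxb13* have no entry in the table used.

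H3K9ac formed 2 blocks in the cluster, of which the block nearer to *Hoxb4* carried peaks in every library and the farther block in 4. Peaks covered 18.6 and 3.33 kb of the window in the *GFI1-36S* pair (vehicle first), 11.1 and 26.3 kb in the *GFI1-36N* pair and 6.61 and 13.3 kb in the *GFI1-KD* pair. These lengths were 10.7%, 1.91%, 6.38%, 15.1%, 3.80% and 7.63% of the window, in 16, 4, 14, 12, 7 and 13 peaks. The block from the end of *Hoxb6* to the end of *Hoxb4* (20.1 kb) carried peaks in all 6 libraries, with 11.5, 3.33, 6.32, 9.50, 5.63 and 5.47 kb covered. The block from *Hoxb9* to *Hoxb6* (30.1 kb) had 6.92, 0, 4.56, 16.8, 0 and 7.80 kb covered, so that *GFI1-36S* curcumin and *GFI1-KD* vehicle had no peak in it. The 77.1 kb from *Hoxb13* up to *Hoxb9* held 1 peak of 229 bp, in *GFI1-36N* vehicle. The 46.6 kb after *Hoxb4* held 0.209 kb of peaks in *GFI1-36S* vehicle, 0.975 kb in *GFI1-KD* vehicle and none in the other libraries.

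**Figure D1:**
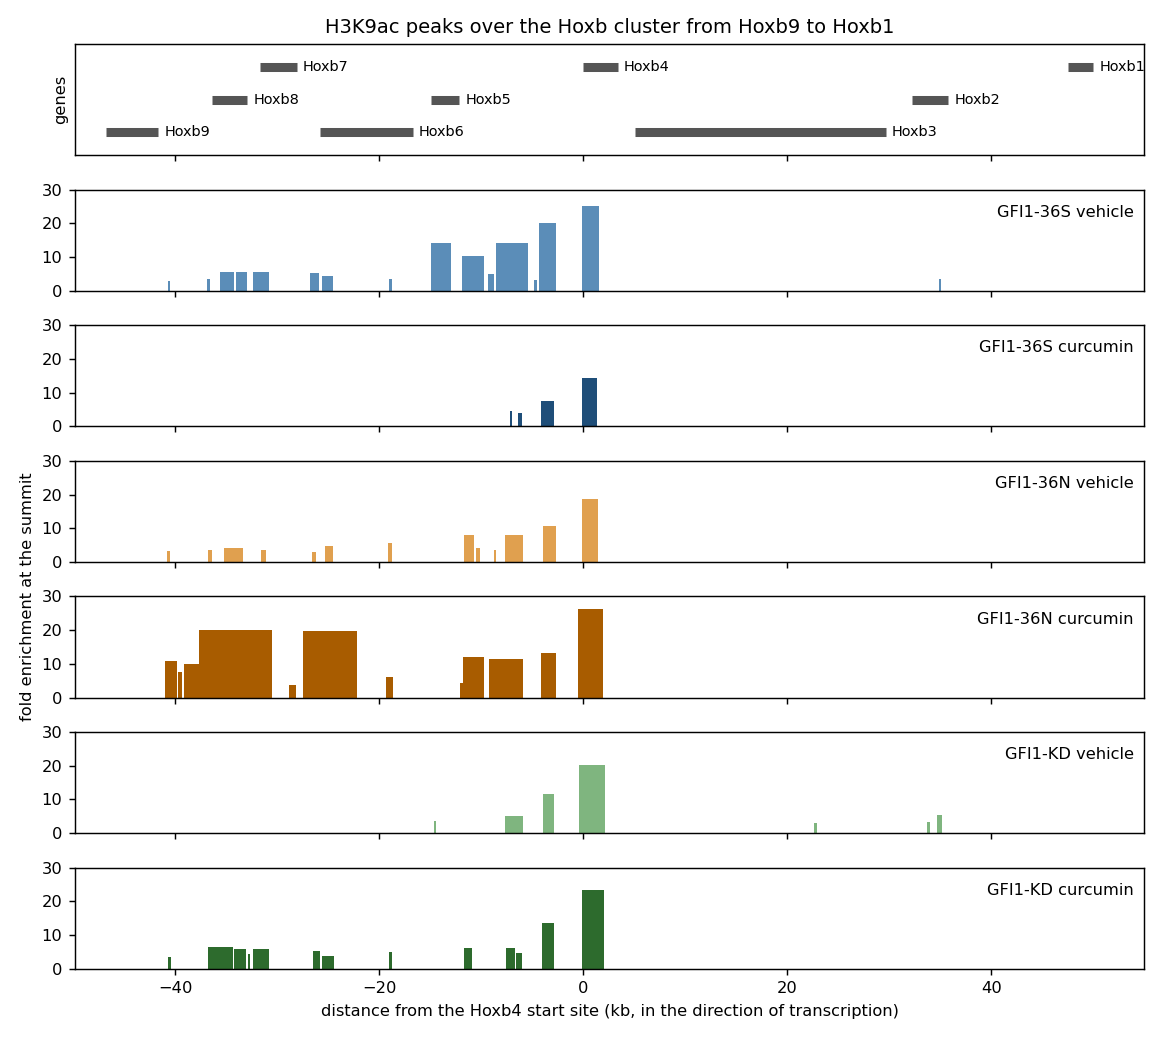
H3K9ac peaks from Hoxb9 to Hoxb1 in each of the 6 libraries, against the distance from the Hoxb4 start site in kb; the bars span the peaks, their height is the deposited fold enrichment at the summit (not normalized between libraries), and the gene bodies are drawn in the top row. The peaks at Hoxb4 and just upstream of it are in all 6 libraries, while the block over Hoxb8 to Hoxb6 at the left is empty in GFI1-36S curcumin and GFI1-KD vehicle and widest in GFI1-36N curcumin.

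A promoter was taken as 1 kb on each side of any start site of the basic annotation. It had a peak for 5, 1, 4, 4, 3 and 4 of the 10 *Hoxb* genes in the 6 libraries in order. The share over all protein-coding promoters was 51.9%, 44.3%, 51.7%, 53.8%, 53.6% and 50.6%. The *Hoxb* share in *GFI1-36S* vehicle, 50%, was close to that of all promoters. It was lower in the other libraries, by the widest margin in *GFI1-36S* curcumin. With only 10 genes, the smaller differences are not read as a trait of the cluster. Over all the libraries 6 of the 10 genes had a promoter peak at least once, 1 had it in all 6 and 4 never had it. The strongest peak of a promoter was ranked from 0 to 100 by its fold enrichment, within the promoter peaks of that library, since fold enrichment is not normalized between lists.

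*Hoxb4*, a homeobox gene known for expanding haematopoietic stem cells when overexpressed, was the only member with a promoter peak in every library, as were 42.6% of all coding promoters. Its fold enrichment at the summit was 25.2 and 14.4 in the *GFI1-36S* pair, 18.8 and 26.3 in the *GFI1-36N* pair and 20.1 and 23.4 in the *GFI1-KD* pair. The ranks were 70.1, 62.0, 56.0, 69.8, 45.2 and 65.8, so the peak was in the upper part of its list in all the libraries but *GFI1-KD* vehicle. The summits lay 653 to 767 bp downstream of the start site at chr11:96318267, all inside the coding exon and within 114 bp of each other. The summit held 149, 80, 130, 151, 146 and 140 fragments, with exact Poisson 95% intervals of 126 to 175, 63.4 to 99.6, 109 to 154, 128 to 177, 123 to 172 and 118 to 165. These intervals, like all intervals given here, cover counting error only. The peak was 1408 bp wide in *GFI1-36S* curcumin and 2560 bp in *GFI1-KD* vehicle, which were the extremes.

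The *Hoxb4* summits were also compared after division by the background fragments of each library, which were between 4.61 and 6.13. The ratio of curcumin to vehicle was 0.564 (95% interval 0.424 to 0.744) in *GFI1-36S*, and the median over all promoters with a peak in both libraries of the pair was 0.582. In *GFI1-36N* it was 1.44 (1.13 to 1.83), beside a median of 1.25. In *GFI1-KD* it was 1.19 (0.936 to 1.51), an interval that includes no difference, beside a median of 0.889. The middle 95% of all promoters ran from 0.279 to 1.27, from 0.762 to 1.99 and from 0.499 to 1.45. All 3 *Hoxb4* ratios lay inside it.

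Between *Hoxb5* and *Hoxb4*, 2 further sites had a peak in all 6 libraries, with summits outside any annotated gene. The site nearer to *Hoxb4* is shown because its summit was the most fixed of the 3 shared sites. The 6 summits fell within 62 bp of each other, 3387 to 3449 bp upstream of the *Hoxb4* start site and 2285 to 2347 bp upstream of the microRNA gene *Mir10a*. The plus strand of mm10 at chr11:96314742-96314942, 100 bases on each side of the median summit, reads as follows.
Intergenic site: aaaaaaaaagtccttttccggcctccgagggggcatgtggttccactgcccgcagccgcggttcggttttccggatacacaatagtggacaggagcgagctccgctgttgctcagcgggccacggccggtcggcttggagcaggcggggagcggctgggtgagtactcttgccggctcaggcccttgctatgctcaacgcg
No match to the 7 motifs was found in it, so no base is in capitals. In windows of this length around all *GFI1-36S* vehicle summits, the HOX-PBX site was in 4.55%, the MEIS site in 13.8%, the GFI1 site in 0.320%, a CCAAT box in 17.1%, the E-box in 3.13%, a GC box in 15.6% and TATAAA in 7.41%. The window held 18 CpG dinucleotides and was 63.2% G or C.

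The fold enrichment at this intergenic site was 20.2, 7.48, 10.8, 13.3, 11.8 and 13.6 in the 6 libraries in order, and the summits held 119, 41, 74, 76, 85 and 81 fragments. *GFI1-36S* vehicle was the highest and *GFI1-36S* curcumin the lowest. The ratio of curcumin to vehicle in fragments over background was 0.362 (0.247 to 0.520) in *GFI1-36S*, 1.27 (0.911 to 1.78) in *GFI1-36N* and 1.18 (0.8603 to 1.62) in *GFI1-KD*. The other shared site lay farther from *Hoxb4*, 6206 to 7149 bp upstream, with summits spread over 943 bp and a fold enrichment of 14.2, 4.63, 8.05, 11.4, 5.06 and 4.80. Its ratios were 0.279 (0.172 to 0.438), 1.46 (1.01 to 2.14) and 0.959 (0.622 to 1.47). In *GFI1-36S*, these intergenic sites and *Hoxb4* were all lower in curcumin beyond counting error. The median ratio over all promoters with a peak in both libraries of this pair was 0.582. The *Hoxb4* interval included that median, while the intervals of both intergenic sites lay below it. The curcumin library of this pair had the T-cell marker peaks described above, whose part in the difference was not tested. In *GFI1-KD* none of the 3 intervals excluded equal heights. The *Hoxb4* interval there (0.936 to 1.51) lay above the median of its pair, 0.889, and the intervals of both intergenic sites included it.

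**Figure D2:**
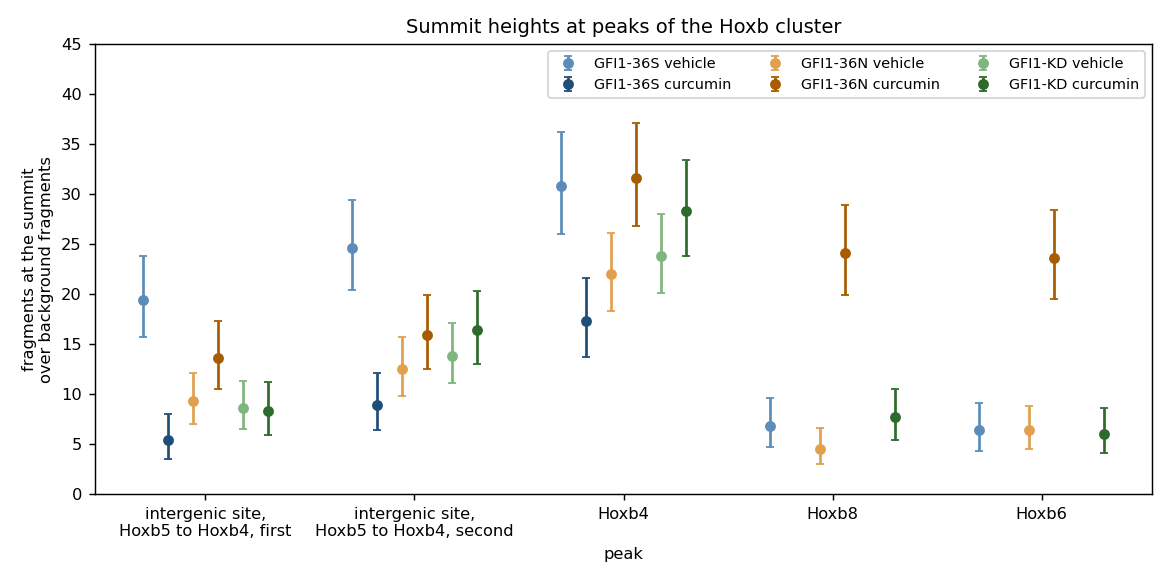
Fragments at the summit divided by the background fragments of the library, at the 2 intergenic sites between Hoxb5 and Hoxb4 (in order along the chromosome) and at the strongest promoter peaks of Hoxb4, Hoxb8 and Hoxb6; each point is 1 library and the bars are exact Poisson 95% intervals, counting error only. A missing point means that no peak was listed, as at Hoxb8 and Hoxb6 in GFI1-36S curcumin and GFI1-KD vehicle, and GFI1-36N curcumin stands at 24.1 and 23.6 at Hoxb8 and Hoxb6 against 4.56 to 7.68 in the other libraries. The Hoxb6 point of GFI1-36N vehicle is at the downstream start site of the gene and the other Hoxb6 points are at the upstream one.

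*Hoxb6*, *Hoxb7* and *Hoxb8* carried a promoter peak in the same 4 libraries, namely *GFI1-36S* vehicle, both *GFI1-36N* libraries and *GFI1-KD* curcumin. *Hoxb8* is known for blocking myeloid differentiation when kept on, and *Hoxb6* and *Hoxb7* are its neighbours of the same homeobox family. For *Hoxb8* the fold enrichment was 5.73 in *GFI1-36S* vehicle, 4.03 in *GFI1-36N* vehicle, 20.1 in *GFI1-36N* curcumin and 6.47 in *GFI1-KD* curcumin, with ranks of 9.44, 4.89, 46.2 and 10.3. For *Hoxb7* the ranks were 9.44, 2.47, 46.2 and 9.16, and for *Hoxb6* they were 8.68, 10.4, 44.98 and 6.75. *Hoxb6* has 2 start sites. Its ranked peak lay at the downstream one in *GFI1-36N* vehicle and at the upstream one in the rest of these 4 libraries. All the 3 genes sat near the bottom of the ranking in 3 libraries and in its middle in *GFI1-36N* curcumin. The *Hoxb8* summits of *GFI1-36S* vehicle and *GFI1-36N* curcumin were 520 and 518 bp downstream of the nearer of its 2 start sites, in the coding exon, and that of *GFI1-KD* curcumin was 412 bp downstream. In *GFI1-36N* vehicle the summit was 1732 bp downstream of it, outside the promoter window that its peak reached. A weaker peak of that library had its summit 123 bp upstream of the other *Hoxb8* start site, with a fold enrichment of 3.60 and 24 fragments.

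In *GFI1-36N* curcumin a single peak of 7123 bp (chr11:96280644-96287766) covered the whole promoter windows of both *Hoxb8* and *Hoxb7*. Only 70 of the 49213 peaks in that list were at least as wide, and the median peak of the list was 480 bp. Its summit lay at *Hoxb8*, 3380 bp upstream of *Hoxb7*, so the value given for *Hoxb7* in this library is that of the *Hoxb8* summit. The same stretch was split into 4 peaks in *GFI1-36S* vehicle (4352 bp in all), 3 in *GFI1-36N* vehicle (2772 bp) and 4 in *GFI1-KD* curcumin (5468 bp). Another wide peak of *GFI1-36N* curcumin, 5277 bp over the upstream start site of *Hoxb6* (chr11:96290760-96296036), had a fold enrichment of 19.7.

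In the block from *Hoxb9* to *Hoxb6*, 4 stretches had peaks in both *GFI1-36N* libraries. The strongest summit differed in height between these libraries by more than counting error at 3 of the 4, though the 2 summits compared did not lie at the same base. The *Hoxb8* summit held 27 fragments in vehicle and 115 in curcumin, a ratio over background of 5.27 (3.44 to 8.35). The vehicle summit lay 1732 bp and the curcumin summit 518 bp downstream of the same start site. Around the upstream start site of *Hoxb6* the summits held 31 and 113 fragments, a ratio of 4.51 (3.01 to 6.95), with the vehicle summit 819 bp downstream and the curcumin summit 499 bp upstream of that start. A weaker vehicle peak upstream of the start held 20 fragments. At the downstream start site of *Hoxb6*, in contrast, they held 38 and 35 fragments, and the ratio of 1.14 (0.6995 to 1.85) included equal heights. A peak between *Hoxb9* and *Hoxb8*, with summits 4342 and 3687 bp upstream of *Hoxb8*, held 21 and 62 fragments, a ratio of 3.66 (2.20 to 6.31). The ratios at *Hoxb8*, the upstream *Hoxb6* start and the site before *Hoxb8* stood above the upper end of the middle 95% of promoters (1.99), and the ratio at the downstream *Hoxb6* start stood below the median of 1.25. Neutrophil markers had a promoter peak at 11 of 14 in both *GFI1-36N* libraries, stem and progenitor markers at 10 and 9 of 12, and erythroid markers at 10 and 7 of 12, and the part of cell composition in these ratios was not tested.

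*Hoxb5* lies in the block nearer to *Hoxb4* and had a promoter peak in 2 libraries, both vehicle. In *GFI1-36S* vehicle the peak was 1953 bp wide with a fold enrichment of 14.1, a rank of 29.3 and 83 fragments (66.1 to 103). In *GFI1-KD* vehicle it was a peak of 221 bp with a fold enrichment of 3.58 and a rank of 2.69. *Hoxb2*, which acts in the hindbrain, had a promoter peak in *GFI1-KD* vehicle alone, 277 bp wide, with a fold enrichment of 3.30 and a rank of 1.60. These last 2 peaks were among the weakest promoter peaks of their list. Beyond the promoter window, a site in the *Hoxb2* coding exon had a peak in *GFI1-KD* vehicle, with its summit 1551 bp downstream of the start, a fold enrichment of 5.35 and 38 fragments, and in *GFI1-36S* vehicle, with 19 fragments. With 3 kb on each side of the start sites, *Hoxb2* therefore had a peak in *GFI1-36S* vehicle too.

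No promoter peak was listed in any library for *Hoxb1*, *Hoxb3*, *Hoxb9* or *Hoxb13*, except that *Hoxb3* had one in *GFI1-KD* vehicle when the start sites of the full annotation or windows of 3 kb were used, and 42.8% of all coding promoters had none in any library. *Hoxb1* is known for its role in the hindbrain and *Hoxb13* for its role in the posterior body and prostate. The CpG counts of these 4 genes were neither all higher nor all lower than those of the rest, and a part of sequence composition was not tested. Within 1 kb on each side of the most upstream start site, *Hoxb9* held 124 CpG dinucleotides and *Hoxb3* held 23, which were the highest and the lowest counts in the cluster. *Hoxb1* and *Hoxb13* held 59 and 65. The genes with a peak in at least 1 library held 94 (*Hoxb4* and *Hoxb5*), 111 (*Hoxb7*), 65 (*Hoxb8*) and 46 (*Hoxb6* and *Hoxb2*), and the median over all coding promoters was 63.

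**Figure D3:**
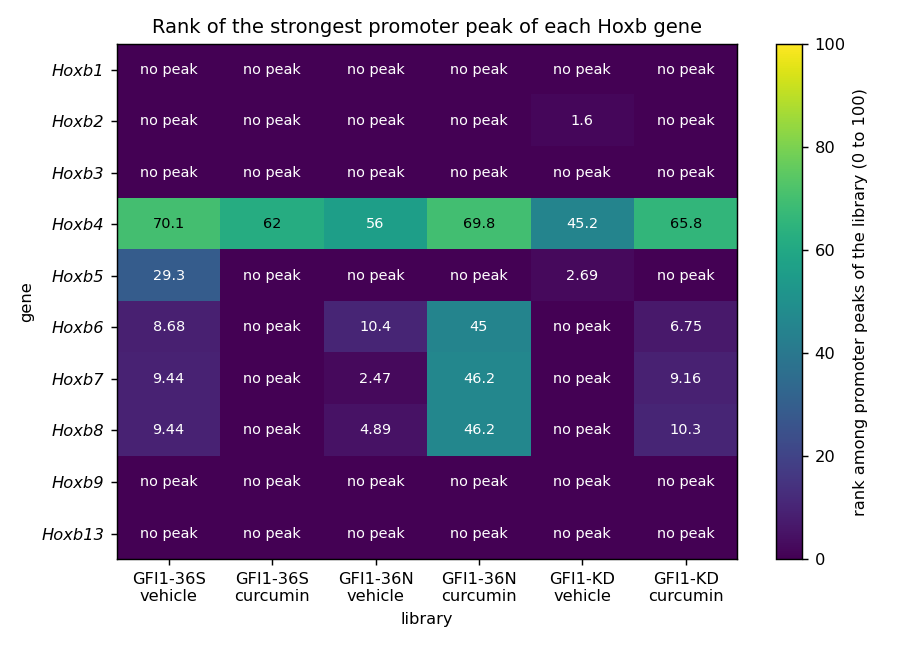
Rank of the strongest promoter peak of each Hoxb gene (rows) in each library (columns), from 0 to 100 by fold enrichment within that library; no peak means that none was listed within 1 kb of a start site. Hoxb4 lies between 45.2 and 70.1 in all 6 libraries, Hoxb6, Hoxb7 and Hoxb8 reach 44.98 to 46.2 only in GFI1-36N curcumin, and Hoxb1, Hoxb3, Hoxb9 and Hoxb13 are empty throughout.

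The comparison of curcumin with vehicle within each genotype asks whether the treatment changed acetylation at these promoters. A promoter with a peak in the vehicle library alone was counted as lost and a promoter with a peak in the curcumin library alone as gained. In *GFI1-36S*, 4 of the 5 *Hoxb* promoters with a peak in either library were lost with curcumin (*Hoxb5*, *Hoxb6*, *Hoxb7* and *Hoxb8*) and none was gained. Over all coding promoters with a peak in either library 16.2% were lost and 1.99% gained. These shares are over promoters of all ranks. The vehicle ranks of *Hoxb6*, *Hoxb7* and *Hoxb8* were only 8.68, 9.44 and 9.44, and that of *Hoxb5* was 29.3. No share was taken over promoters of like rank. *Hoxb6*, *Hoxb7* and *Hoxb8* are neighbours and do not count as independent observations. The covered length of the window was 0.179 times that of vehicle, and the length covered over the genome was 0.443 times. The curcumin library here is the library without neutrophil marker peaks, whose part in these counts was not tested.

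In *GFI1-36N*, the same 4 *Hoxb* promoters had a peak in both libraries, so none was lost and none gained, beside 1.84% lost and 5.73% gained over all coding promoters. The ranks were higher in curcumin for all the 4 genes, beside a median change of 1.89 over all coding promoters with a peak. The curcumin ranks of *Hoxb7* and *Hoxb8* come from 1 shared peak, and the 2 *Hoxb6* ranks come from different start sites of the gene. The covered length was 2.37 times that of vehicle, against 1.16 times over the genome. In *GFI1-KD*, 2 of 6 promoters were lost (*Hoxb2* and *Hoxb5*) and 3 were gained (*Hoxb6*, *Hoxb7* and *Hoxb8*), beside 6.73% lost and 1.19% gained over all coding promoters. The covered length was 2.01 times that of vehicle, while over the genome it was 0.693 times. *Hoxb6*, *Hoxb7* and *Hoxb8* are neighbours under a shared block of acetylation and do not count as 3 independent observations. The *GFI1-KD* curcumin library had fewer erythroid marker promoters with a peak than its vehicle (5 against 12 of 12) and fewer neutrophil markers (8 against 13 of 14). T-cell markers (2 against 4 of 14) and B-cell markers (2 against 4 of 10) were also fewer. Stem and progenitor markers went the other way (11 against 10 of 12). The part of these cells in the difference was not tested.

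Over the 3 genotypes together, curcumin minus vehicle was 1.26 percentage points for the covered share of the window, -1 for the number of *Hoxb* promoters with a peak, 8.73 for the rank of *Hoxb4* and -0.04 for its log2 fold enrichment. For these 4 values an exact two-sided permutation test of 3 libraries against 3, which ignores the pairing by genotype, gave p = 0.9, 0.7, 0.4 and 1 (each 1 after Benjamini-Hochberg adjustment). The smallest p possible was 0.1, so the test could not have passed a usual level and decides nothing. The covered share, the rank and the fold enrichment were higher with curcumin in 2 of the 3 genotypes and the number of promoters in 1 of 3.

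The vehicle libraries compare the genotypes without curcumin. *Hoxb6*, *Hoxb7* and *Hoxb8* had a promoter peak in *GFI1-36S* and *GFI1-36N* but not in *GFI1-KD*. Over all coding promoters with a peak in either library, 2.1% were in *GFI1-36S* and not in *GFI1-KD*, and 5.33% the other way. For *GFI1-36N* and *GFI1-KD* these shares were 2.36% and 5.95%. The *Hoxb2* promoter peak was in *GFI1-KD* and in neither of the other genotypes, while the site in its coding exon was in *GFI1-KD* and *GFI1-36S*. *Hoxb5* was in *GFI1-36S* and *GFI1-KD* and not in *GFI1-36N*, and 3.4% of coding promoters were in *GFI1-36S* and not in *GFI1-36N*, with 3.03% the other way. The weakest peak listed in *GFI1-KD* vehicle held 17 fragments at the summit, and the weakest within the window held 20. In *GFI1-36N* vehicle the *Hoxb7* and *Hoxb8* summits held 23 and 27 fragments, and those peaks were not among the top 20354 of their list. The *Hoxb6* summit of that library held 38 fragments. In *GFI1-36S* vehicle the *Hoxb6*, *Hoxb7* and *Hoxb8* summits held 31, 33 and 33 fragments. *Hoxb6* in *GFI1-36N* vehicle and all these genes in *GFI1-36S* vehicle kept a promoter peak among the top 20354. Whether the missing peaks of *GFI1-KD* vehicle reflect the threshold of its list was not tested. In *GFI1-36S*, *GFI1-36N* and *GFI1-KD* vehicle, neutrophil markers had a promoter peak at 13, 11 and 13 of 14, erythroid markers at 12, 10 and 12 of 12, and stem and progenitor markers at 9, 10 and 10 of 12. B-cell markers did at 1, 3 and 4 of 10 and T-cell markers at 6, 6 and 4 of 14, and the part of these cells in the differences was not tested.

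The cluster also holds 9 noncoding genes in the annotation, and peaks reached the starts of 3 of them. *Mir10a* encodes miR-10a and lies between the intergenic sites and *Hoxb4*. It is shown with *Mir196a-1*, the other microRNA of the cluster, which had no peak in any library. The seeds (bases 2 to 8) are in capitals.
miR-10a-5p: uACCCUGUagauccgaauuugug
miR-196a-5p: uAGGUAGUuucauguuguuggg
The mature sequences are from RefSeq (GRCm38.p6, plus strand, chr11:96317186-96317208 and chr11:96265187-96265208). The edge of the *Hoxb4* peak lay within 1 kb of the *Mir10a* start in 5 libraries and not in *GFI1-36S* curcumin, but no peak covered the *Mir10a* gene body. The start of *Hoxb5os*, an RNA antisense to *Hoxb5* and *Hoxb6*, had a peak in the 4 libraries that had *Hoxb6* to *Hoxb8* peaks, with a fold enrichment of 10.4 in *GFI1-36S* vehicle, 8.05 and 12.1 in *GFI1-36N* vehicle and curcumin, and 6.30 in *GFI1-KD* curcumin. Their summits lay within 159 bp of each other. In *GFI1-36N* these summits held 55 fragments in vehicle and 69 in curcumin. The ratio over background was 1.55 (1.07 to 2.26), an interval that includes the median of 1.25 over all promoters of the pair. *Gm11536*, antisense within *Hoxb3*, had a weak peak in *GFI1-KD* vehicle alone, with a fold enrichment of 2.89. ChIP fragments carry no strand, so a peak shared by sense and antisense genes belongs to neither alone.

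The other Hox clusters were read in the same way. Of 11 *Hoxa* promoters 7, 2, 6, 7, 6 and 6 had a peak in the 6 libraries in order, of 9 *Hoxc* promoters 4, 1, 5, 5, 0 and 5, and of 9 *Hoxd* promoters none in any library. The covered share was 27.7%, 1.53%, 25.5%, 23.2%, 7.99% and 25.9% for *Hoxa* and 15.0%, 1.23%, 28.7%, 35.5%, 0% and 32.1% for *Hoxc*, and at most 1.05% for *Hoxd*. *GFI1-36S* curcumin and *GFI1-KD* vehicle had the lowest covered shares in the *Hoxa*, *Hoxb* and *Hoxc* clusters alike. In *GFI1-36N* the covered share was higher in curcumin than in vehicle for *Hoxb* and *Hoxc* and lower for *Hoxa*.

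**Figure D4:**
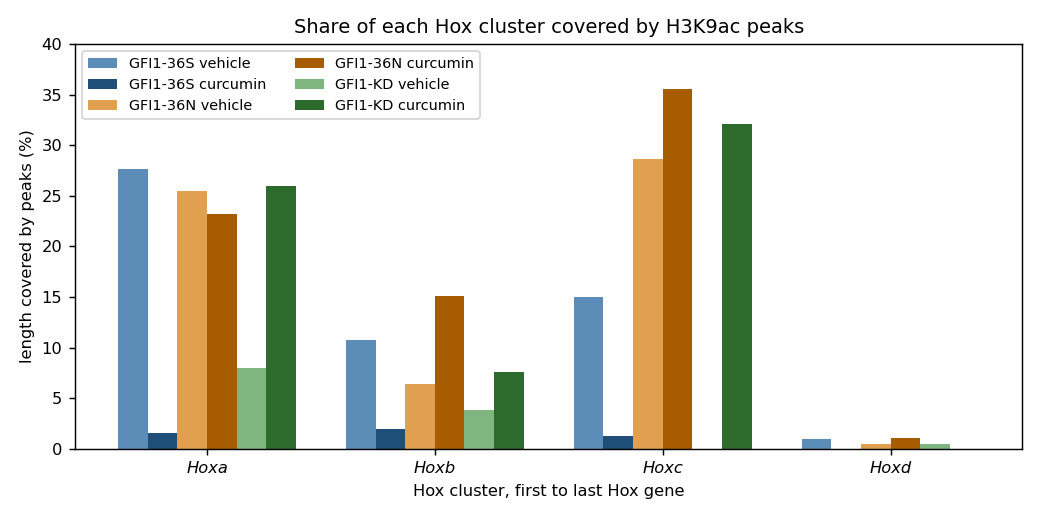
Share of the length of each Hox cluster, from the first to the last Hox gene, covered by H3K9ac peaks in each library (1 bar per library, no replicates, so no error bars). In Hoxa, Hoxb and Hoxc the GFI1-36S curcumin and GFI1-KD vehicle bars are the lowest, the highest Hoxb bar is GFI1-36N curcumin at 15.1%, and Hoxd stays at or below 1.05%.

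Of 30 genes that encode HOX cofactors and regulators of the Hox clusters, 23, 22, 23, 24, 25 and 23 had a promoter peak in the 6 libraries, and 22 had it in all of them. The shares over all coding promoters were 51.9%, 44.3%, 51.7%, 53.8%, 53.6% and 50.6%, and 42.6% had a peak in all the libraries. *Meis1*, a HOX cofactor that accelerates HOX-driven leukaemia, had a rank of 14.4 in *GFI1-36N* vehicle and no peak in *GFI1-36N* curcumin. It had ranks of 11.4 and 14.04 in *GFI1-KD* vehicle and curcumin and no peak in either *GFI1-36S* library. *Meis2* had a peak in *GFI1-36N* curcumin alone, at rank 11.97. *Pknox2*, which encodes a homeodomain protein related to the MEIS proteins, had a peak in *GFI1-KD* vehicle alone, at rank 2.14. *Hmga2*, a chromatin protein, had a peak in *GFI1-36S* vehicle (rank 6.61) and *GFI1-36N* curcumin (rank 7.01). *Cdx1*, *Cdx2* and *Cdx4*, which encode activators of Hox genes in the embryo, had none in any library.

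The nearest coding genes outside the cluster did not carry its pattern. *Ttll6*, on the *Hoxb13* side, had no promoter peak in any library. *Skap1*, on the *Hoxb1* side, encodes a T-cell adaptor protein and had a promoter peak in *GFI1-36S* curcumin alone, at rank 8.90. The median rank of the 10 *Hoxb* genes was 4.34 in *GFI1-36S* vehicle and 0 in the other libraries. Of the 12537 genes compared, those closest to it over the 6 libraries were *D630023F18Rik*, *Entpd6*, *Cxcr1*, *Nags* and *Ncam2*, with root mean square differences of 0.0574 to 0.199, and each of them had a low-ranked peak in *GFI1-36S* vehicle alone. No *Hoxb* gene had a promoter peak in *GFI1-36S* vehicle alone, so these genes resemble the median and no single member. *Hoxb4*, with ranks of 45.2 to 70.1, was far from this median. So were *Hoxb6*, *Hoxb7* and *Hoxb8* in *GFI1-36N* curcumin, with ranks of 44.98 to 46.2 against a median of 0.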

How the data were processed

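The 6 H3K9ac libraries of whole BM cells, 1 per genotype and treatment, were analysed. The input and rabbit IgG samples were not used here. Adapters were removed with Trim Galore, reads were mapped to mm10 with BWA-MEM, and peaks were called with MACS2 and filtered with the ENCODE black list by the authors. The deposited lists give the fold enrichment (a ratio to the local background), the −log10 p, the −log10 q and an integer score of each peak. None of these is normalized between libraries, and the threshold and control of each list are not given in the sources used here. The peak score was not used.

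The start sites were those of the basic set of GENCODE M21, without the mitochondrial genome. Overlap meant at least 1 bp. Whole fragments at each summit were recovered from fold enrichment and p by the MACS2 formula, which gave a whole number within 0.02 for all 66 peaks of the window. Promoters whose −log10 p exceeded 250 were left out of the median height ratios. Ratios have exact conditional binomial intervals. Motifs were searched in the 250 bases before a start site and in 201-base windows around summits. Python 3.11.15, numpy 2.4.6, pandas 2.3.3 and scipy 1.17.1 were used, and the steps were tested on simulated data. All *Hoxb* genes were named, with the noncoding genes that a peak reached, the nearest coding neighbours, the changed genes among the regulators and the 5 genes closest in rank. A result of the regulator list is not reported here. The test over the 3 genotypes and the full annotation were added after seeing the data, as was the exchange of the *GFI1-36S* pair for ranks, covered length and heights. The members and lists were chosen with earlier results of these data known.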

Additional observations from a re-analysis of the deposited data

Results flagged for a closer look

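The length of the *Hoxb* window covered by peaks moved in opposite directions with curcumin in different genotypes. Curcumin minus vehicle was -15.3 kb in *GFI1-36S*, 15.24 kb in *GFI1-36N* and 6.661 kb in *GFI1-KD*. For *Hoxb4* the rank of the promoter peak in curcumin minus that in vehicle was -8.18 (*GFI1-36S*), 13.8 (*GFI1-36N*) and 20.6 (*GFI1-KD*). For *Hoxb6* these differences were -8.68, 34.6 and 6.75, for *Hoxb7* -9.44, 43.7 and 9.16, and for *Hoxb8* -9.44, 41.3 and 10.3 in the same order. The median difference over all coding promoters with a peak was -6.61, 1.89 and -2.34, so the *Hoxb4* value in *GFI1-36S* was close to that of promoters in general. In *GFI1-36N* the *Hoxb7* and *Hoxb8* values rest on 1 shared curcumin peak, and the *Hoxb6* value compares peaks at different start sites of the gene. In *GFI1-36S* and *GFI1-KD* the values of these 3 genes set a peak against no peak, counted as rank 0, in lists of unequal length. With equal numbers of peaks they were -2.50, -3.31 and -3.31 in *GFI1-36S* and 2.23, 4.76 and 5.99 in *GFI1-KD*. With 1 library per group these differences between genotypes were not tested. Each opposite direction turns on the *GFI1-36S* pair, whose curcumin library had 13 of 14 T-cell and none of 14 neutrophil marker promoters with a peak and whose list names carry the exchanged treatments.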

How the results depend on the processing

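With the treatments of the *GFI1-36S* pair exchanged, as in the list names, 0 promoters were lost and 4 gained, the covered share was 8.80 percentage points higher with curcumin, and the log2 ratios of fold enrichment were 0.81 at *Hoxb4* and 1.43 and 1.61 at the nearer and farther intergenic sites. The rank changes became 8.18 for *Hoxb4*, 29.3 for *Hoxb5*, 8.68 for *Hoxb6* and 9.44 for both *Hoxb7* and *Hoxb8*. With a −log10 q of at least 5, *GFI1-KD* vehicle had 1 promoter and 0 were lost in *GFI1-KD*. With the top 20354 peaks of each list, *GFI1-36N* vehicle had 2 promoters and 3.925% of the window covered, 2 were gained in *GFI1-36N*, *GFI1-KD* vehicle had 1 and 0 were lost in *GFI1-KD*. With 3 kb windows 1 was gained in *GFI1-36N* (*Hoxb5*). With summits inside the window 1 was lost there (*Hoxb7*), and with 1000 bp of the window covered *GFI1-KD* vehicle had 1. From *Hoxb9* to *Hoxb1* alone the shares were 19.25%, 3.44%, 11.2%, 27.2%, 6.83% and 13.7%, and the differences -15.81, 15.98 and 6.88 points, because the empty stretch before *Hoxb9* is left out. With equal numbers of peaks, the rank changes of *Hoxb6*, *Hoxb7* and *Hoxb8* were smaller in *GFI1-36S* (-2.50, -3.31 and -3.31) and *GFI1-KD* (2.23, 4.76 and 5.99). With the full annotation 3 promoters were lost in *GFI1-KD*, *Hoxb3* among them. The 3 gains in *GFI1-KD* stayed within 1.5 times under all the alternatives run. Of 144 values of the main comparisons 119 stayed alike. With the genotype as the replicate block, the differences over the 3 genotypes (1.26 points of covered share, -1 promoter, 8.73 in *Hoxb4* rank and -0.04 in its log2 fold enrichment) had exact p of 1, 1, 0.5 and 1, where 0.25 is the smallest possible. With the *GFI1-36S* pair exchanged as well, the covered share, the rank and the fold enrichment were higher with curcumin in 3 of 3 genotypes (7.13 points, 14.2 and 0.50, each at that smallest p of 0.25).

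The peak lists hold no reads, so an absent peak means a height under the threshold of its list, not an absence of acetylation. Intervals count fragments, which carry no molecular identifiers, and leave out variation between mice. Library depth, cell composition and treatment cannot be told apart with 1 library per group.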

Other observations

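The 5 genes outside the Hox clusters closest in rank to *Hoxb4* over the 6 libraries were *Cfap20*, *Gtpbp6*, *Fpgs*, *Aga* and *Chchd2*, with root mean square differences of 4.52 to 5.16. The 5 closest to *Hoxb8* were *Syn3*, *Tmem178*, *Cp*, *Rtl6* and *Dnph1*, with differences of 6.49 to 8.52. *Syn3* had ranks of 6.06, 0, 2.47, 32.0, 2.14 and 4.91 in the order of libraries used above. These comparisons were chosen after the values were seen and are given as a description of 6 libraries.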
